A study of Gallus gallus with 18 samples.

Results

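HSPB9, HSPB1 and CRYAB are 3 genes of the small heat shock protein family, and their transcripts were followed in 3 chicken tissues at rest and after acute heat. Every probe set that the array's annotation gives to only 1 of these symbols was taken, which made 4 of the 38439 probe sets that are not controls. HSPB9 is read by Gga.985.1.S1_s_at and GgaAffx.20099.1.S1_at, HSPB1 by Gga.1809.1.S1_at and CRYAB, alpha B crystallin, by Gga.1999.1.S1_a_at. In Affymetrix naming s_at marks a set whose probes match several transcripts, of the same or of another gene, which cannot be told apart on that HSPB9 set. The heated groups are brain, liver and leg muscle of Gallus gallus held at 40 ± 1 °C for 3 h, and the control groups are the same tissues of birds left at 28 ± 1 °C, with 3 arrays in each of the 6 groups. All birds had first been kept at 28 ± 1 °C for 8 days with free water and food. The study used 24 birds, 12 male and 12 female, and no strain is named in the labels. Brain stands for cerebral cortex in the labels. Heated arrays carry the time label T3 and control arrays T0, so heat cannot be told apart from time of sampling. The arrays are labelled as biological replicates, and whether RNA of several birds was combined for an array is not given in the sources used here, so p-values measure the spread between these arrays only.

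Small heat shock proteins are chaperones that need no ATP. They share an alpha-crystallin domain, assemble into oligomers, bind proteins that begin to unfold and pass them on to the HSP70 chaperones for refolding. Heat shock factors drive the transcription of many of them. In mammals HSPB1 and CRYAB are abundant in striated muscle, where they protect the contractile filaments, CRYAB is also a major protein of the eye lens and is found in glia, and HSPB9 is known mainly from testis. RefSeq (assembly GRCg7b) carries HSP25 as a synonym of chicken HSPB9. It places HSPB9 between LOC772158 and RAB5C, HSPB1 between YWHAG and SRRM3, and CRYAB directly beside HSPB2, another small heat shock protein gene.

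The deposited values are linear intensities, 1 for each probe set on each array. Array medians ran from 79.6 to 99.1, and the 6 bacterial trp control probe sets, which show the background, read 6.06 to 97.6. Marker genes matched the tissue labels: 10 of 10 skeletal muscle markers were highest in muscle, 10 of 11 hepatocyte markers in liver (not TTR) and 8 of 9 neuron markers in brain (not GAP43), as were 5 of 6 oligodendrocyte markers (not MOG) and 5 of 6 astrocyte markers (not GLUL). Some arrays also held transcripts of a second tissue. The median hepatocyte marker stood at 21.5% of its liver control level on brain heat array 1, at 1.00% and 2.65% on brain heat arrays 2 and 3, and at 0.35% to 0.57% on the brain controls. In muscle it stood at 30.9% on heat array 3, at 8.62% and 7.41% on heat arrays 1 and 2, and at 1.56% to 8.17% on the controls. Heat effects in brain and muscle were therefore also fitted without brain heat array 1 or muscle heat array 3.

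HSPB9 rose with heat in brain and liver, and it was the only one of the 3 genes called for heat in any tissue. On Gga.985.1.S1_s_at the brain arrays read 6690, 4268 and 4188 after heat, against 332, 152 and 389 in controls. The liver arrays read 12008, 13858 and 14870 after heat, against 606, 544 and 466 in controls. The muscle arrays read 8538, 5962 and 10097 after heat, against 3621, 2740 and 2127 in controls. In each tissue all 3 heat arrays lay above all 3 controls, which held for 18.3% of the tested probe sets in brain, 17.7% in liver and 10.1% in muscle. The lowest heat array read 10.8 times the highest control in brain, 19.8 times in liver and 1.65 times in muscle.

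Heat was tested against control in each tissue with limma on log2(intensity + 16), over the 19220 probe sets whose mean reached the tissue median, with Benjamini-Hochberg adjusted p under 0.05 as a call. In brain HSPB9 rose 17.2-fold on Gga.985.1.S1_s_at (log2 4.11, SE 0.32, adjusted p = 0.0021), the third highest change among the tested probe sets. In liver it rose 23.6-fold (log2 4.56, SE 0.14, adjusted p = 4.08e-06), the second highest. By the same rule, 6.55% of the tested probe sets were called higher in brain and 6.94% in liver. In muscle the difference was 2.89-fold (log2 1.53, SE 0.24, 95% confidence interval 0.97 to 2.09), with an adjusted p of 0.076, so no rise was called. Only 0.0052% of the tested probe sets, a single one annotated to ASB2, were called higher in muscle, although 3101 of 19220 had an unadjusted p under 0.05. The muscle difference passed with a filter at the 75th percentile (adjusted p = 0.048), with array weights (0.046) and in the fit over all 18 arrays (0.0047).

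The other HSPB9 probe set, GgaAffx.20099.1.S1_at, gave the same directions from higher readings. Brain arrays read 13682, 12112 and 10848 after heat, against 2102, 794 and 2355 in controls. Liver arrays read 17325, 14313 and 18304 after heat, against 2963, 2671 and 2155 in controls. Muscle arrays read 13609, 13688 and 15233 after heat, against 13263, 10095 and 7040 in controls. All heat arrays lay above all controls in each tissue, as did 18.3% of the tested probe sets in brain, 17.7% in liver and 10.1% in muscle. In muscle the lowest heat array and the highest control lay next to each other. The rise was 7.63-fold in brain (log2 2.93, SE 0.35, adjusted p = 0.013) and 6.04-fold in liver (log2 2.59, SE 0.13, adjusted p = 9.62e-05). Leaving out brain control 1 (adjusted p = 0.073) or brain heat 2 (adjusted p = 0.071) ended the brain call. In muscle the difference was 1.44-fold (log2 0.53, SE 0.21, 95% confidence interval 0.05 to 1.01, adjusted p = 0.27) and was not called, with 0.29 without muscle control 3. The highest intensity in the table is 28637, so the heat readings of this probe set lie in the upper part of the scale, and whether they were compressed there was not tested. The 3'/5' ratio of EEF1A, a sign of RNA integrity, was 1.53, 1.82 and 2.30 on muscle controls 1, 2 and 3. It was 1.58 to 1.89 on the muscle heat arrays. Both HSPB9 probe sets read lower from muscle control 1 to 3, and the part of RNA integrity in this was not tested.

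**Figure D1:**
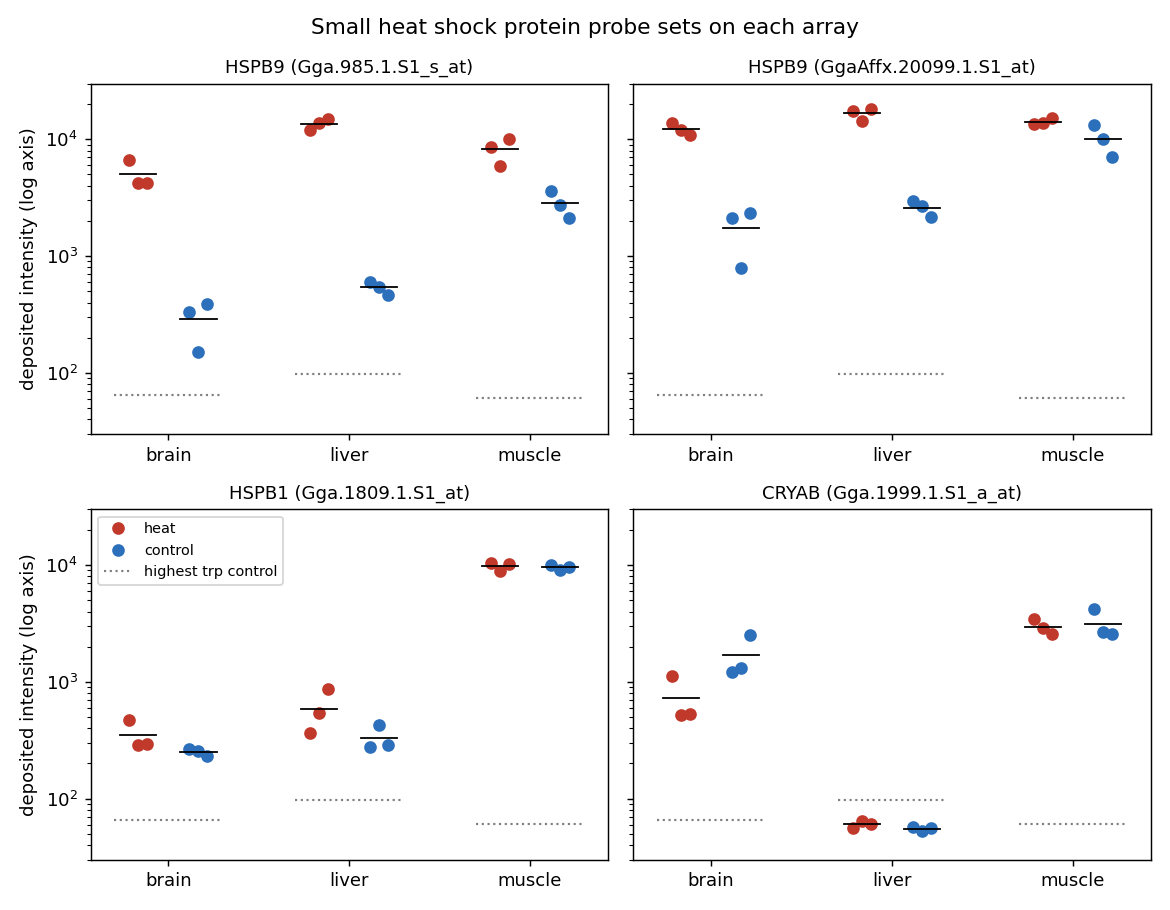
Deposited intensity on a log axis of the 4 probe sets on each of the 18 arrays, heat (red) left of control (blue) in each tissue, with lines at group means and a dotted line at the highest trp control of the tissue. HSPB9 lies between 4188 and 18304 on all heat arrays, HSPB1 is high in muscle only, and CRYAB in liver lies at 52.7 to 64.2, under the dotted line at 97.6.

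HSPB1 was abundant in muscle and did not pass the test in any tissue. Muscle arrays read 10361, 8966 and 10166 after heat, against 9979, 9134 and 9674 in controls. Those groups overlapped, and the difference was 1.02-fold (log2 0.03, SE 0.09, 95% confidence interval -0.18 to 0.24, adjusted p = 0.90). Brain arrays read 475, 289 and 292 after heat, against 268, 258 and 232 in controls. The 3 brain heat arrays lay above the controls, as did 18.3% of the tested probe sets in brain. The log2 difference was 0.42 (SE 0.19, 95% confidence interval -0.01 to 0.84, adjusted p = 0.16). Without brain heat 1 it was 0.19 (adjusted p = 0.29). Liver arrays read 362, 543 and 867 after heat, against 278, 429 and 288 in controls. They overlapped, and the log2 difference was 0.67 (SE 0.30, 95% confidence interval -0.02 to 1.35, adjusted p = 0.16), which passed only with array weights (0.94, adjusted p = 0.030). It was 0.34 without liver heat 3 (adjusted p = 0.40) and 0.96 without liver heat 1 (adjusted p = 0.082).

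CRYAB ran the other way in brain. Its brain arrays read 1124, 521 and 532 after heat, against 1219, 1322 and 2510 in controls. All 3 heat arrays lay below all controls, as did 18.2% of the tested probe sets in brain. The log2 difference was -1.21 (SE 0.34, 95% confidence interval -2.00 to -0.43), with an adjusted p of 0.053, and was not called, while 5.74% of the tested probe sets were called lower. It passed without brain heat 1 (log2 -1.57, adjusted p = 0.0020), with array weights (-1.74, adjusted p = 0.0028), in the fit over 18 arrays (adjusted p = 0.018), with quantile normalization (adjusted p = 0.045) and with array medians set equal (adjusted p = 0.048). Muscle arrays read 3468, 2891 and 2547 after heat, against 4171, 2692 and 2561 in controls, with a log2 difference of -0.06 (SE 0.21, 95% confidence interval -0.54 to 0.43, adjusted p = 0.93). The sign of that difference turned without muscle control 1 (0.16) and without muscle heat 3 (0.05). Liver arrays read 55.6, 64.2 and 60.3 after heat, against 57.7, 52.7 and 55.8 in controls. These lie below the filter limit of 82.1 and below the highest trp control in liver, so CRYAB was not tested for heat there.

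Of the 4 probe sets, 2 rose in brain, both of HSPB9, where 6.55% of all probe sets tested were called higher and 5.74% lower. Of the 3 tested in liver, 2 rose, again both of HSPB9, where 6.94% of all probe sets tested were called higher and 6.13% lower. In muscle 0 of 4 were called by limma, where 0.0052% of the 19220 probe sets tested were called higher and 0% lower. Of the 4 in muscle, 2, both of HSPB9, had an unadjusted p under 0.05. The median log2 change of the tested member probe sets was 1.68 in brain, 2.59 in liver and 0.28 in muscle. Over all probe sets tested in those tissues it was 0.00, -0.03 and 0.01. The member medians count HSPB9 by 2 probe sets and so do not describe the 3 genes as a set. In brain HSPB1 stood at 0.42 and CRYAB at -1.21, neither of them called, and in liver CRYAB was not tested.

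**Figure D2:**
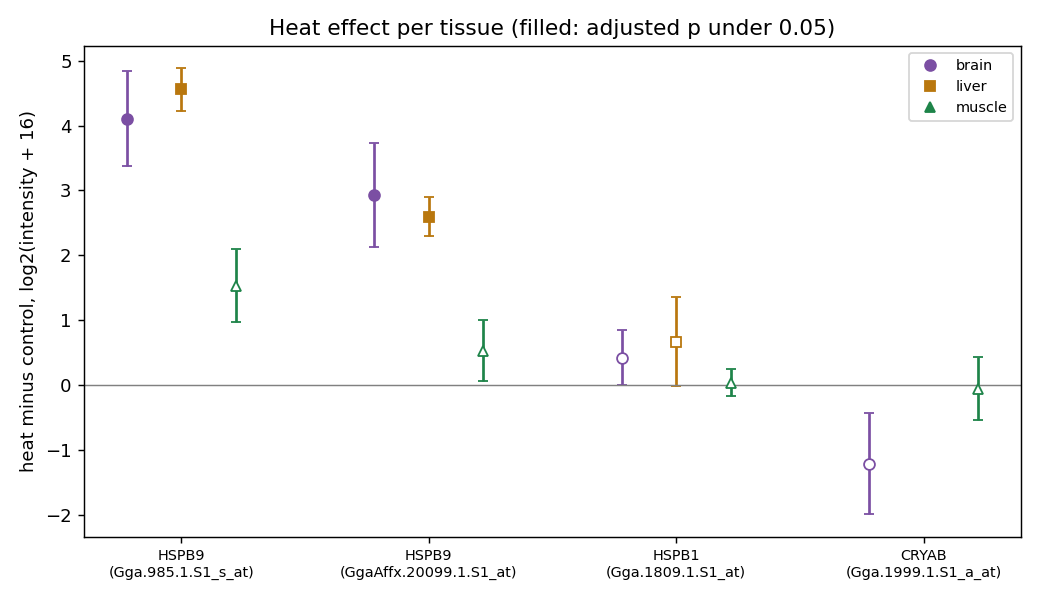
Heat minus control on the log2(intensity + 16) scale for each probe set in brain (circles), liver (squares) and muscle (triangles), with 95% confidence intervals, filled where the adjusted p is under 0.05. HSPB9 stands at 4.11 and 2.93 in brain and at 4.56 and 2.59 in liver, and the CRYAB point in brain stands at -1.21. CRYAB has no point in liver, where it was not tested.

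Whether heat acted unequally on HSPB9 in different tissues was tested on the difference of the heat effects in the fit over 18 arrays. The effect was larger in liver than in muscle on both probe sets, by a log2 of 3.03 on Gga.985.1.S1_s_at (SE 0.41, adjusted p = 0.0024) and 2.07 on GgaAffx.20099.1.S1_at (SE 0.42, adjusted p = 0.026). It was also larger in brain than in muscle, by 2.58 on the first (SE 0.41, adjusted p = 0.013) and 2.40 on the second (SE 0.42, adjusted p = 0.020). Of all probe sets tested, 0.484% were called higher in the first of these comparisons and 0.192% in the second. Both comparisons use the same muscle arrays. The call of 2.07 was lost on leaving out any of 6 single arrays: liver control 3 (1.90, adjusted p = 0.072), liver heat 1 (2.06, 0.061), liver heat 3 (2.06, 0.053), muscle control 1 (1.85, 0.053), muscle control 2 (2.04, 0.051) or muscle heat 2 (2.04, 0.056). The call of 2.40 was lost without brain heat 2 (2.40, adjusted p = 0.066).

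Between liver and brain no difference in the HSPB9 heat effect was called. The liver effect minus the brain effect was 0.45 (95% confidence interval -0.41 to 1.31, adjusted p = 0.66) on Gga.985.1.S1_s_at and -0.34 (-1.22 to 0.54, adjusted p = 0.76) on GgaAffx.20099.1.S1_at, whose sign turned without brain control 2 (0.15). These intervals still allow differences of over 2-fold. For HSPB1 the 3 tissue differences ran from 0.25 to 0.63 with adjusted p from 0.51 to 0.80, and without liver heat 3 the liver minus brain value was -0.07. For CRYAB the brain effect minus the muscle effect was -1.16 (SE 0.40, adjusted p = 0.25), which passed without brain heat 1 (-1.51, adjusted p = 0.042). The liver effect minus the brain effect was 1.30 (SE 0.40, adjusted p = 0.12), which also passed without that array (1.66, adjusted p = 0.019), though the liver readings in it lie at background. The liver effect minus the muscle effect was 0.15 (adjusted p = 0.92), and -0.07 without muscle control 1. By the same rule the share of all probe sets called was 0.783% in the higher and 0.921% in the lower direction for liver minus brain.

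After heat the order for HSPB9 on Gga.985.1.S1_s_at was liver, then muscle, then brain. Muscle lay under liver by -0.75 (SE 0.29, adjusted p = 0.032) and above brain by 0.70 (SE 0.29, adjusted p = 0.039), and brain lay under liver by -1.45 (SE 0.29, adjusted p = 2.26e-04). The muscle and liver call was lost without liver heat 2 (-0.70, adjusted p = 0.080), liver heat 3 (-0.73, 0.075) or muscle heat 2 (-0.54, 0.15). The muscle and brain call was lost without brain heat 2 (0.60, adjusted p = 0.12), brain heat 3 (0.58, 0.13), muscle heat 1 (0.65, 0.090) or muscle heat 3 (0.53, 0.15), and without brain heat 1 and muscle heat 3 together (0.75, 0.054). On GgaAffx.20099.1.S1_at no pair of heated tissues differed by the test, with -0.23 for muscle minus liver (95% confidence interval -0.85 to 0.40), 0.22 for muscle minus brain (-0.40 to 0.84) and -0.45 for brain minus liver (-1.07 to 0.18). In heated birds the share of all probe sets called higher was 30.4%, and lower 32.6%, in muscle than in liver, 31.1% higher in muscle than in brain, and 40.1% higher and 32.7% lower in brain than in liver.

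At rest, both HSPB9 probe sets instead read highest in muscle, then liver, then brain. In control birds the muscle level of HSPB9 was above that in liver by a log2 of 2.27 on Gga.985.1.S1_s_at (SE 0.29, adjusted p = 3.00e-06) and 1.84 on GgaAffx.20099.1.S1_at (SE 0.30, adjusted p = 3.97e-05), which is 4.83-fold and 3.58-fold. It was above that in brain by 3.28 on the first (SE 0.29, adjusted p = 1.74e-08) and 2.62 on the second (SE 0.29, adjusted p = 3.98e-07). Brain lay under liver by log2 differences of -1.004 on the first (SE 0.29, adjusted p = 0.0049) and -0.78 on the second (SE 0.29, adjusted p = 0.025). The last call was lost without brain control 2 (-0.29, adjusted p = 0.20), without liver control 1 (-0.70, adjusted p = 0.075) and without liver control 2 (-0.77, adjusted p = 0.055). Tissues differ in most transcripts on these arrays: 28.5% of all probe sets were called higher in resting muscle than in liver, 29.7% higher in resting muscle than in brain, and 39.4% higher and 33.4% lower in resting brain than in liver.

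HSPB1 kept its muscle pattern in both conditions. The heated muscle level was above heated liver by 4.15 (SE 0.25, 17.7-fold) and above heated brain by 4.78 (SE 0.25, 27.4-fold), against 4.78 (SE 0.25, 27.5-fold) and 5.16 (SE 0.25, 35.8-fold) at rest. All 4 differences were called (adjusted p from 5.33e-12 to 4.05e-10). Brain and liver lay close together: brain minus liver was -0.63 after heat (SE 0.25, adjusted p = 0.032), against -0.38 at rest (SE 0.25, adjusted p = 0.18). The heated difference was lost without brain heat 2 (-0.51, adjusted p = 0.12), brain heat 3 (-0.52, 0.11), liver heat 2 (-0.63, 0.060) or liver heat 3 (-0.30, 0.23).

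CRYAB read highest in muscle, then brain, with liver at background. The muscle level was above brain by 2.09 after heat (SE 0.28, adjusted p = 3.72e-06), against 0.94 at rest (SE 0.28, adjusted p = 0.0070). Brain lay above liver by 3.19 after heat (SE 0.28, adjusted p = 1.64e-08), against 4.50 at rest (SE 0.28, adjusted p = 1.83e-10). Without brain heat 1 and muscle heat 3 the heated values were 2.55 for muscle minus brain and 2.84 for brain minus liver. Muscle lay above liver by 5.28 after heat (SE 0.28) and by 5.43 at rest (SE 0.28), and since the liver readings are at background these values depend on the constant added before the logarithm. At rest the muscle minus liver value ran from 4.71 with 64 added to 5.77 with 1 added.

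**Figure D3:**
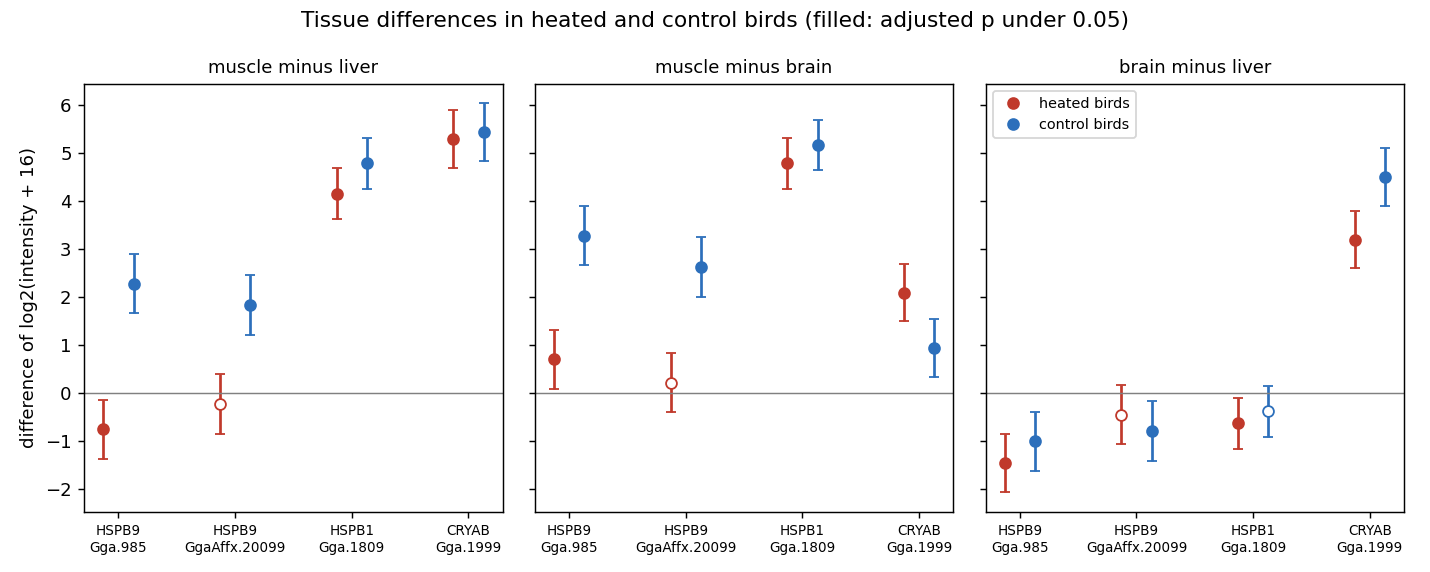
Differences between tissues on the log2(intensity + 16) scale in heated birds (red) and control birds (blue), with 95% confidence intervals, filled where the adjusted p is under 0.05. For HSPB9 on Gga.985.1.S1_s_at, muscle minus liver stands at -0.75 in heated and at 2.27 in control birds, while for HSPB1 it stands at 4.15 and 4.78.

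The median muscle marker was above the controls of the same tissue on all 3 brain heat arrays and 2 of 3 liver heat arrays. HSPB9 and HSPB1 were therefore read beside the muscle markers, each as a percentage of its control muscle mean. The summed muscle markers overlapped between heat and control arrays. They were 4357 to 6708 against 4564 to 5162 in brain, and 731 to 4354 against 752 to 1123 in liver. On the brain controls that sum was mostly PVALB (4084 to 4637), which was lower after heat. MYL1, ACTA1, TNNT3, TNNI2, TNNC2 and MYBPC1 had every brain heat array above every control, as did 18.3% of the tested probe sets in brain. MYLPF and MB overlapped in brain, and TNNI1 and PVALB lay lower on every heat array. Of 3 muscle markers tested in brain, 2 were called higher and 1 lower, where 6.55% of all probe sets tested were called higher and 5.74% lower. Their median log2 change was 2.50, and the mean of ACTA1, skeletal actin, was 1773 after heat against 180 in controls. In liver 0 of 5 tested were called by limma, with a median of 1.21, where 6.94% of all probe sets tested were called higher and 6.13% lower. The filter used the mean over heat and control arrays, so some markers passed it through their heat arrays. Such were TNNT3 in brain (control mean 73.6, heat mean 509, limit 96.1) and, in liver (limit 82.1), MYL1 (62.0 and 209), TNNI2 (76.4 and 193) and TNNC2 (81.3 and 279). These medians therefore do not describe the whole list. The median muscle marker stood at 1.87%, 1.64% and 1.32% on the brain heat arrays, against 0.49%, 0.61% and 0.59% on the brain controls. In liver it stood at 0.68%, 1.65% and 1.90% on the heat arrays, against 0.92%, 0.84% and 0.51% on the controls. HSPB9 on Gga.985.1.S1_s_at stood at 236%, 151% and 148% of the control muscle mean in heated brain. In heated liver it stood at 424%, 490% and 526%. Set against the heated muscle mean, it stood at 81.6%, 52.1% and 51.1% on the brain heat arrays. Of the muscle markers on the brain heat arrays, none was above 11.9% of its control muscle mean (ACTA1) other than PVALB, at up to 37.5%, and TNNI1 and MB were under the highest trp control on all brain arrays. PVALB, parvalbumin, was lower on the brain heat arrays (2060 to 2634) than on the brain controls (4084 to 4637).

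For HSPB1 the values were closer to those markers. It stood at 4.95%, 3.01% and 3.04% of the control muscle mean on the brain heat arrays, against 2.79%, 2.69% and 2.42% on the brain controls. In liver it stood at 3.77%, 5.66% and 9.03% on the heat arrays, against 2.90%, 4.48% and 3.00% on the controls. Its highest readings in brain (heat array 1) and liver (heat array 3) were on the arrays with the highest median muscle marker of each tissue, and the part of muscle RNA in them was not tested. In bulk tissue, a change in the share of a cell type and a change of RNA per cell cannot be told apart.

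**Figure D4:**
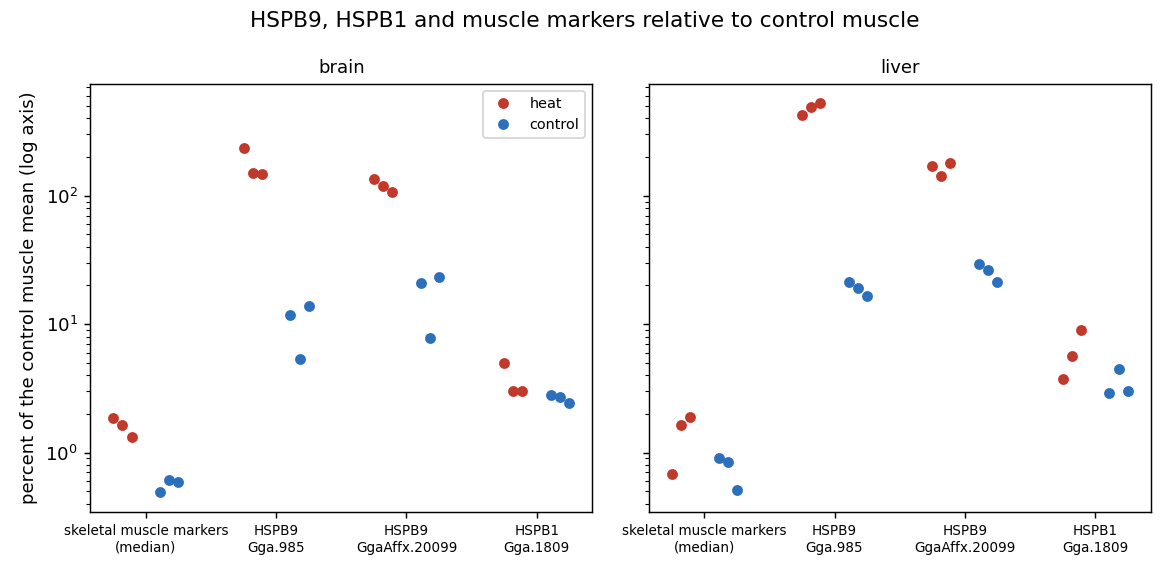
Each array's level as a percentage of the control muscle mean, on a log axis, in brain and liver, heat (red) left of control (blue), for the median of 10 skeletal muscle markers, both HSPB9 probe sets and HSPB1. HSPB9 (Gga.985.1.S1_s_at) lies at 148% to 236% on brain heat arrays and 424% to 526% on liver heat arrays, while the median muscle marker lies at or below 1.90%.

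The HSPB9 values were also taken without the brain and the muscle array with the highest hepatocyte markers. Without brain heat 1 the brain heat effect was 3.89 (adjusted p = 5.42e-05) on Gga.985.1.S1_s_at and 2.85 (adjusted p = 5.23e-04) on GgaAffx.20099.1.S1_at. Without muscle heat 3 the muscle effect was 1.36 (adjusted p = 0.16) and 0.48 (adjusted p = 0.47). Without muscle heat 3 the liver effect minus the muscle effect was 3.19 (adjusted p = 0.0037) and 2.12 (adjusted p = 0.045). Without both arrays, the brain effect minus the muscle effect was 2.52 (adjusted p = 0.016) and 2.37 (adjusted p = 0.033).

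Beside CRYAB in brain, glial markers were read because glia carry CRYAB in mammals. The summed oligodendrocyte markers were 13683 to 16735 on the heat arrays and 14581 to 19161 on the controls, which overlap. CNP, a myelin enzyme, was the only 1 of 6 called in brain (log2 -1.02, SE 0.27, adjusted p = 0.046), where 5.74% of all probe sets tested were called lower. CNP also read lower after heat outside brain, at 189 to 210 against 397 to 417 in liver and 138 to 257 against 285 to 337 in muscle. SOX10 and OLIG2, oligodendrocyte transcription factors, stood at -0.66 (adjusted p = 0.052) and -0.29 (adjusted p = 0.13), MBP, myelin basic protein, at -0.04, MOBP at 0.06 and MOG at 0.15. None of 6 astrocyte markers was called by limma, and 3 had an unadjusted p under 0.05. GFAP, the astrocyte filament protein, stood at -0.95 (adjusted p = 0.13), while AQP4, a water channel, stood at 0.52 (adjusted p = 0.058) and SLC1A3, a glutamate transporter, at 0.33 (adjusted p = 0.053). In the fit without brain heat 1, where 10.4% of the probe sets tested were called higher and 12.6% lower, 3 of 6 oligodendrocyte markers were called lower (CNP at -1.20, SOX10 at -0.80 and OLIG2 at -0.39), and of the astrocyte markers GFAP was called lower (-1.39) and AQP4 (0.65) and SLC1A3 (0.25) higher. The summed astrocyte markers were 21296 to 25883 after heat against 22061 to 23695 in controls. The 3'/5' ratio of EEF1A, a sign of RNA integrity, was 1.32 to 1.396 in heated brain and 1.47 to 1.56 in control brain. The part of these in the CRYAB values was not tested.

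Among the relatives, HSPB8 also rose in brain. Of 9 related genes looked up, 7 are on the array, and 4 were tested in brain, 2 in liver and 5 in muscle. HSPB8, which works with BAG3 in the removal of damaged proteins, read 362, 207 and 286 on the brain heat arrays, against 104, 88.8 and 87.0 on the controls. It rose 2.70-fold (log2 1.43, SE 0.18, adjusted p = 0.013). Its brain control mean of 93.4 lies under the filter limit of 96.1, so HSPB8 was tested there only through its heat arrays. Without the filter the adjusted p by limma was 0.011. Leaving out brain control 1 (1.50, adjusted p = 0.073) or brain control 3 (1.39, adjusted p = 0.081) ended the call. Muscle, where HSPB8 is abundant, read 2556, 1837 and 2451 after heat, against 2031, 1413 and 1257 in controls (log2 0.55, SE 0.21, adjusted p = 0.27). The brain heat arrays stood at 23.1%, 13.2% and 18.2% of the control muscle mean of HSPB8, against 6.66%, 5.67% and 5.55% on the brain controls. The median muscle marker stood at 1.32% to 1.87% on those heat arrays, but ACTA1 reached 11.9%. PVALB reached 37.5%, though it read lower there (2060 to 2634) than on the brain controls (4084 to 4637). Against the heated muscle mean, HSPB8 stood at 15.9%, 9.08% and 12.5% on the brain heat arrays. The part of muscle RNA in these values was not tested. In liver HSPB8 read 59.0 to 82.9, under the highest trp control. The liver effect minus the brain effect on HSPB8 was called (log2 -1.30, SE 0.27, adjusted p = 0.026), but 6 of the 12 fits that each left out 1 array lost the call, with values from -1.50 to -1.12.

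HSPB11, also named IFT25 for its role in intraflagellar transport, fell in brain. Its brain arrays read 236, 176 and 177 after heat, against 305, 282 and 334 in controls, with no overlap (log2 -0.61, SE 0.14, adjusted p = 0.032). In brain 18.2% of the tested probe sets had every heat array below every control, and 5.74% were called lower. The call held in 1 of the 6 fits that left out 1 array, the one without brain heat 1 (-0.74, adjusted p = 0.0027), and was lost without brain control 1, 2 or 3 (-0.62, -0.67 and -0.55) and without brain heat 2 or 3 (-0.55 each). HSPB7, a small heat shock protein of heart and skeletal muscle, read 1139, 532 and 855 in heated muscle, against 1032, 1238 and 1391 in control muscle, which overlap (log2 -0.58, SE 0.27, adjusted p = 0.34). HSPB3, found in mammalian muscle, read 313 to 692 in muscle and 1.55 to 6.41 in brain and liver. CRYAA, alpha A crystallin of the eye lens, read 90.0 to 137 in brain and 21.2 to 37.9 in liver and muscle. ODF1, known in mammals from the sperm tail, read 32.0 to 50.3 in all 3 tissues, under the highest trp control of each. None of the 2 relatives tested in liver and none of the 5 tested in muscle was called by limma, and 0 and 1 of them had an unadjusted p under 0.05. Of all probe sets tested, 6.94% were called higher and 6.13% lower in liver, and 0.0052% and 0% in muscle.

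CRYAB and its neighbour HSPB2, a partner of HSPB3 in mammalian muscle, had opposite tissue orders outside muscle. HSPB2 read 61.7, 61.1 and 55.7 in heated brain, against 63.2, 51.6 and 58.2 in control brain, all under the highest trp control of 65.0. It read 272, 283 and 299 in heated liver, against 419, 258 and 298 in control liver. Brain minus liver for HSPB2 was -1.97 after heat (SE 0.16, adjusted p = 5.45e-09) and -2.22 at rest (SE 0.16, adjusted p = 1.06e-09). For CRYAB the same differences were 3.19 and 4.50. Both genes were highest in muscle, where HSPB2 read 548 to 596 after heat, against 537 to 808 in controls (log2 -0.17, SE 0.18, adjusted p = 0.67).

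**Figure D5:**
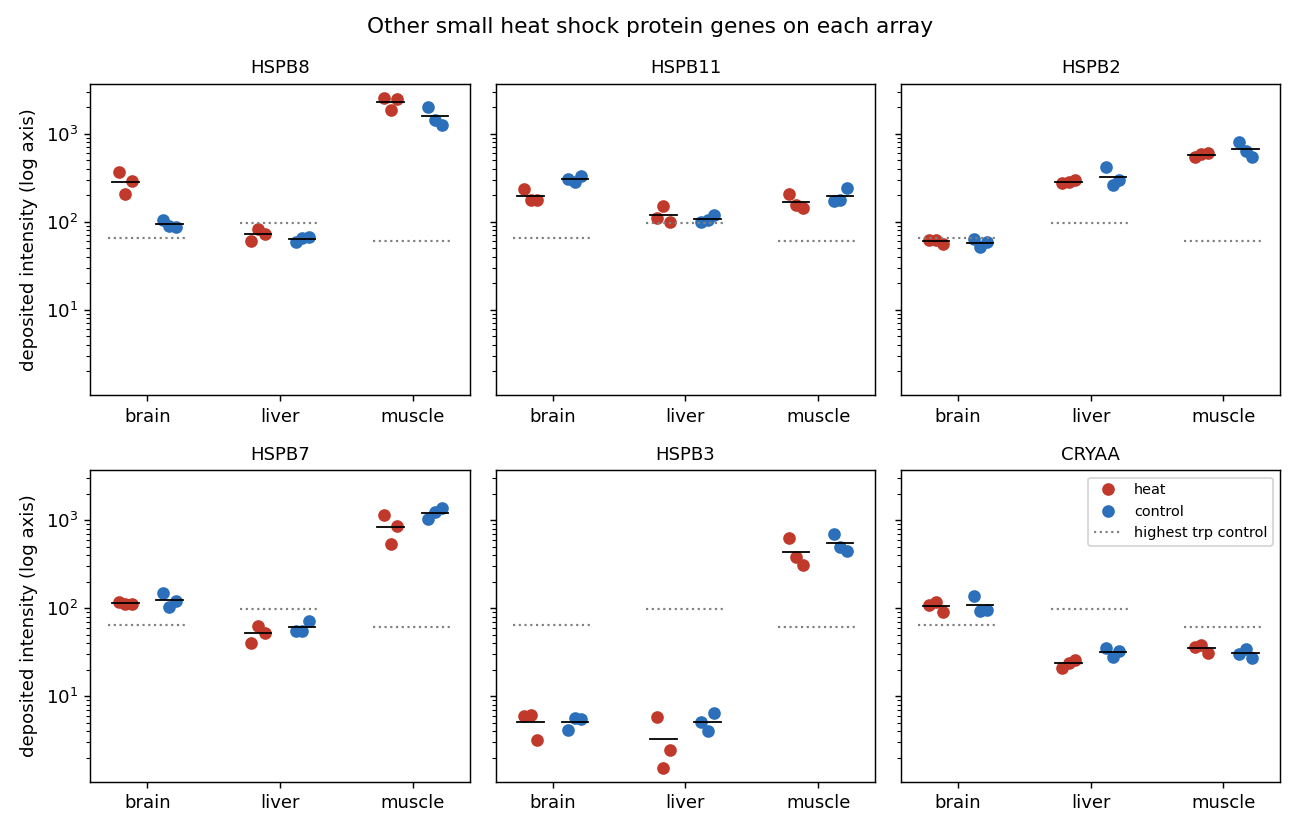
Deposited intensity on a log axis of 6 of the related genes looked up (HSPB8, HSPB11, HSPB2, HSPB7, HSPB3 and CRYAA) on each array, heat (red) left of control (blue), with lines at group means and a dotted line at the highest trp control of the tissue. HSPB8 lies at 207 to 362 in heated brain and at 87.0 to 104 in control brain, and HSPB2 in brain lies under the dotted line at 65.0.

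Of 28 chaperones and cochaperones tested in brain, 14 rose and 0 fell, with a median log2 change of 0.39 against 0.00 over all probe sets, of which 6.55% were called higher and 5.74% lower. The counts were 16 and 2 without brain heat 1, against 10.4% and 12.6% of all probe sets. Of 26 tested in liver, 10 rose and 1 fell, with a median of 0.41 against -0.03 over all probe sets, of which 6.94% were called higher and 6.13% lower. The 3 with the smallest p in brain were HSPA2, an HSP70 chaperone (log2 1.49, SE 0.07, adjusted p = 1.94e-04), BAG3, which links HSPB8 to HSP70 (1.90, SE 0.12, adjusted p = 9.78e-04), and DNAJA4, a J-domain cochaperone of HSP70 (1.29, SE 0.10, adjusted p = 0.0020). In liver they were HSPD1, the mitochondrial chaperonin (0.65, SE 0.10, adjusted p = 0.011), BAG3 (1.46, SE 0.24, adjusted p = 0.012) and HSPH1, a nucleotide exchange factor of HSP70 (1.87, SE 0.31, adjusted p = 0.012). The gene that fell in liver was HSP90AB1, a constitutive HSP90 (-0.68, SE 0.14, adjusted p = 0.022), named after its value was seen.

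In muscle limma called 0 of 28 chaperones, also without muscle heat 3. Both fits called 0.0052% of all probe sets tested higher and 0% lower. Of the 28 in muscle, 11 had an unadjusted p under 0.05 in the higher and 2 in the lower direction, with a median of 0.23 against 0.01. HSPH1 had the smallest p there (log2 2.85, SE 0.32, adjusted p = 0.068), followed by DNAJB5, a J-domain protein (-1.36, SE 0.20, adjusted p = 0.070), and BAG3 (0.82, SE 0.14, adjusted p = 0.081). The list of heat shock factors also holds HSBP1. HSF1 has no probe set annotated to it alone and was not tested. Of the 4 genes of this list tested in each tissue, 0 were called by limma in brain, liver or muscle. The shares of all probe sets tested in these tissues were 6.55%, 6.94% and 0.0052% called higher, and 5.74%, 6.13% and 0% called lower. In brain 1 had an unadjusted p under 0.05 in the lower direction, HSF4 (-0.34, adjusted p = 0.10), beside HSBP1, a negative regulator of heat shock factors (-0.21, adjusted p = 0.22, and -0.32, adjusted p = 0.018, without brain heat 1), and HSF3, a factor that birds use in the heat response (0.19, adjusted p = 0.23). The fit without brain heat 1 called 12.6% of all probe sets tested lower. In liver 1 had an unadjusted p under 0.05, HSF3 (0.43, adjusted p = 0.14), with HSF4 at -0.14 and HSF2 at -0.07. In muscle 0 had, with HSF2 at -0.51, HSF3 at 0.30 and HSF4 at -0.33. List medians were -0.10, -0.02 and -0.11 in brain, liver and muscle.

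Of the partners and clients of small heat shock proteins, such as sarcomere, cytoskeleton and protein quality genes, the count that rose was 2 of 15 in brain. It was 1 of 11 for liver and 0 of 16 for muscle, and no member fell by limma, where 6.55%, 6.94% and 0.0052% of all probe sets tested were called higher in brain, liver and muscle. The shares of all probe sets called lower were 5.74%, 6.13% and 0% in brain, liver and muscle. In brain 2 rose and 4 fell without brain heat 1, where 10.4% of all probe sets tested were called higher and 12.6% lower. Without muscle heat 3 none was called in muscle, where 0.0052% of all probe sets tested were called higher and 0% lower. Unadjusted p under 0.05 were seen for 4 higher and 3 lower in brain, 1 and 2 in liver, and 2 and 4 in muscle. The list medians were -0.02, -0.04 and -0.02. BAG3, the gene that rose in liver, and STUB1 are also on the list of chaperones, so the lists are not separate. Beside BAG3, the gene that rose in brain was ACTN2, an actin crosslinker of the sarcomere Z-disc (log2 1.44, SE 0.23, adjusted p = 0.020, and 1.34, adjusted p = 0.0029, without brain heat 1), and the median muscle marker was higher on those arrays (1.32% to 1.87% of the muscle level after heat, against 0.49% to 0.61% in controls). STUB1, a ubiquitin ligase that works with HSP70, stood at -0.29 in brain (adjusted p = 0.063, and 0.035 without brain heat 1, at -0.31) and -0.48 in liver (adjusted p = 0.087). DES, the muscle filament protein desmin, stood at -0.41 in liver (adjusted p = 0.055). In muscle FLNC, filamin C, stood at -0.62 (adjusted p = 0.14) and ACTB, beta actin, at -0.58 (adjusted p = 0.14).

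The genes whose log2 level ran most like each probe set were found by Pearson's r over the 18 arrays, among 18535 (HSPB9) or 18536 probe sets of other symbols. The arrays fall into 3 tissues and share them, so r is a description and has no p. For HSPB1 they were TNNI2, fast troponin I (0.994), MYPN, the sarcomere protein myopalladin (0.994), TTN, titin (0.992), and MYH1B, a fast myosin heavy chain (0.992). For CRYAB they were DUSP26, a phosphatase (0.982), AK1, adenylate kinase (0.981), CFL2, muscle cofilin (0.981), and DTNA, dystrobrevin alpha (0.978). For HSPB9 the same 4 genes led on both probe sets at lower values. On Gga.985.1.S1_s_at they were PMS1, a mismatch repair protein (0.874), AKAP17A, an anchoring protein of protein kinase A (0.872), PHF20L1, a chromatin reader (0.852), and MGA, a partner of MAX (0.840). On GgaAffx.20099.1.S1_at they were AKAP17A (0.868), MGA (0.847), PHF20L1 (0.831) and PMS1 (0.825).

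Among the members, the 2 HSPB9 probe sets ran together over the 18 arrays (r = 0.975). HSPB1 and CRYAB had r = 0.626, HSPB9 and HSPB1 0.429 and 0.491, and HSPB9 and CRYAB -0.01 and 0.07.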

How the data were processed

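RNA of brain, liver and leg muscle was hybridised to 18 Affymetrix chicken arrays, 3 in each of 6 groups. Biotinylated cRNA was made from 1 µg of total RNA, per the labels' protocols. The authors deposited 1 linear intensity per probe set and array, from 1 to 28637. GCOS 1.4 is named in the submitters' processing notes without its role, and how it summarised and scaled is not given in the sources used here. Leaving out 96 controls, 38439 of 38535 probe sets were used: 27168 have 1 symbol, 177 several and 11094 none. Symbols come from the array annotation, which can be old. The number of arrays limits the precision.

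Values were analysed as log2(intensity + 16). Deposited scaling was kept where trimmed means (2% off each end) of a tissue's arrays lay within 10% (brain, ratio 1.07, and muscle, 1.04), while liver (1.12) was quantile normalized. Per-array values in the text are the deposited ones. Probe sets with a mean below the tissue median (brain 96.1, liver 82.1, muscle 85.1 as intensity) were left out, which kept 19220. limma 3.58.1 in R 4.3.3 fitted each tissue, with an intensity trend, two-sided tests, Benjamini-Hochberg adjustment over all probe sets tested and a threshold of 0.05. Tissue differences came from 1 fit of 6 group means over 18 arrays. No gene was averaged over its probe sets. The heat fit of each tissue and the liver minus brain and liver minus muscle differences were tested on simulated data, without the scaling step. The other comparisons were not simulated. A simulated log2 heat change of 1 was found for 67.4% of the changed probe sets in brain, 66.7% in liver and 55.8% in muscle. For a change of 0.5 these were 24.5%, 10.4% and 4.26%. Figures were drawn with matplotlib 3.10.9.

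The rule for named genes takes every probe set of the 3 genes, every relative on the array, the 3 genes with the smallest p of each other pathway list in each tissue (1 probe set per gene, the brightest) and the 4 genes most alike by Pearson's r. The members, 4 pathway lists and 8 marker lists (139 symbols, 116 on the array) were chosen with earlier results of these data known. Alternatives tried: scaling changed, 1 or 64 as pseudocount, the filter dropped or at the 75th percentile, no trend, array weights, a replicate block, the fit over 18 arrays, 1 probe set per gene, control arrays alone and leaving out each array. Leaving out brain heat 1 and muscle heat 3 together, a random block over tissues, the lists and glial markers without 1 of these arrays, and the settings for HSPB8 and HSPB11, were chosen after seeing the data.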

Additional observations from a re-analysis of the deposited data

Results flagged for a closer look

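The heat effect on HSPB9 differed between tissues by the test of the difference itself (limma, Benjamini-Hochberg), on both probe sets and for 2 of the 3 pairs of tissues. On Gga.985.1.S1_s_at the liver effect exceeded the muscle effect by a log2 of 3.03 (adjusted p = 0.0024), and the brain effect exceeded the muscle effect by 2.58 (adjusted p = 0.013). On GgaAffx.20099.1.S1_at the differences were 2.07 (adjusted p = 0.026) and 2.40 (adjusted p = 0.020). Of 12 fits that each left out 1 array, 6 kept the call of 2.07 and 11 that of 2.40. With the replicate block the calls of 2.58, 2.07 and 2.40 were lost (adjusted p = 0.056, 0.073 and 0.074). All of these calls held with the random block over tissues. Control muscle read 2127 to 3621 on the first probe set and 7040 to 13263 on the second, and all heat arrays of the 3 tissues read 4188 to 14870 and 10848 to 18304. Whether saturation of the signal lowered the muscle effect on the second probe set was not tested. The 3'/5' ratio of EEF1A was 1.53 to 2.30 in control muscle and 1.58 to 1.89 in heated muscle. The part of RNA integrity in the muscle values was not tested.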

How the results depend on the processing

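Of 782 values of the member probe sets under other settings, 730 kept their direction and their side of the threshold, 29 lost a call, 14 gained one and 9 turned sign. Leaving out 1 array gave 354 of these, with 23 lost, 3 gained and 7 turned. No HSPB9 heat effect in liver and none on Gga.985.1.S1_s_at in brain lost its call under any setting tried. The cause of the changes below was not tested.

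Among heat effects, CRYAB in brain was called with quantile normalization (log2 -1.20), equal array medians (-1.25), array weights (-1.74) and the 18-array fit (-1.21), and ran from -1.57 to -0.89 when 1 array was left out. HSPB9 on Gga.985.1.S1_s_at in muscle was called with the 75th percentile filter (1.53), array weights (1.47) and the 18-array fit (1.53). HSPB1 in liver was called with array weights (0.94). HSPB1 in muscle turned to -0.0024 with equal medians and ran from -0.0064 to 0.10 when 1 array was left out (-0.0022 without muscle control 2), and CRYAB in muscle from -0.19 to 0.16 (0.05 without muscle heat 3). HSPB9 on GgaAffx.20099.1.S1_at in brain ran from 2.44 to 3.22. HSPB8 in brain ran from 1.25 to 1.63, called in 4 of 6 such fits, and HSPB11 from -0.74 to -0.55, called in 1 of 6. HSPB11 was also lost with the replicate block (adjusted p = 0.058).

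Among differences of heat effects, HSPB9 on GgaAffx.20099.1.S1_at ran from 1.85 to 2.30 for liver minus muscle, 1.91 to 2.69 for brain minus muscle and -0.62 to 0.15 for liver minus brain when 1 array was left out. HSPB1 for liver minus brain ran from -0.075 to 0.54. CRYAB ran from 0.98 to 1.66 for liver minus brain, -1.51 to -0.83 for brain minus muscle and -0.074 to 0.28 for liver minus muscle. Without brain heat 1 and muscle heat 3 together, chosen after seeing the data, CRYAB was called for liver minus brain (1.66) and brain minus muscle (-1.62).

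Replicate numbers did not pair heat with control arrays: deviations of same-numbered arrays correlated at -0.08, -0.06 and -0.02 in brain, 0.12, 0.34 and -0.08 in liver, and -0.43, 0.03 and -0.12 in muscle. Same-numbered arrays of 2 tissues in 1 condition correlated at -0.09 to 0.43. Among controls all of these were positive: 0.43, 0.19 and 0.21 for muscle with liver, 0.03, 0.22 and 0.14 for muscle with brain, and 0.10, 0.11 and 0.13 for brain with liver. Control arrays of 2 tissues with different numbers ran from -0.37 to 0.22. Same-numbered heat arrays had both signs (-0.09 to 0.28). Whether a number marks the same birds across tissues is not given in the labels. With condition and number as a random block over tissues, chosen after seeing these correlations, no member's call changed in the 6 comparisons of resting or heated levels or in the 3 differences of heat effects. With the replicate block, 3 HSPB9 differences lost their calls with unchanged sizes: liver minus muscle on GgaAffx.20099.1.S1_at (2.07, adjusted p = 0.073) and brain minus muscle on both probe sets (2.58, adjusted p = 0.056, and 2.40, adjusted p = 0.074).

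Among tissue levels, HSPB9 on GgaAffx.20099.1.S1_at for resting brain minus liver was not called with the 9 control arrays alone (-0.78) and ran from -1.07 to -0.29 when 1 array was left out, while HSPB1 was called there (-0.38, adjusted p = 0.049). With quantile normalization over 18 arrays, heated muscle minus liver on Gga.985.1.S1_s_at lost its call (-0.57) and heated muscle minus brain on GgaAffx.20099.1.S1_at turned to -0.012. Without brain heat 1 and muscle heat 3, heated muscle minus brain on Gga.985.1.S1_s_at lost its call (0.75). Leaving out 1 array, those on Gga.985.1.S1_s_at ran from -0.92 to -0.54 and from 0.53 to 0.92, and HSPB1 for heated brain minus liver from -0.91 to -0.30.

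Counts over all probe sets moved more. Brain had 2361 calls, 11 to 4434 without 1 array, 505 with the replicate block and 6922 with array weights. Liver had 2512 calls (499 to 2376 without 1 array, 2054 to 5002 otherwise) and muscle 1 (0 to 8, and 0 to 1739). Differences had 394 calls for liver minus brain (122 to 635, and 130 to 665), 210 for liver minus muscle (126 to 256, and 90 to 315) and 78 for brain minus muscle (14 to 311, and 8 to 252). Signal over background limits CRYAB in liver and HSPB2 in brain.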

Other observations

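Markers of other cell types were summed per array. Neuron markers summed to 44153 to 45636 after heat, against 42722 to 44261 in controls, in brain, to 412 to 882, against 282 to 289, in liver, and to 475 to 1700, against 312 to 364, in muscle, so the ranges did not overlap in liver and muscle. Of single probe sets tested, 17.7% in liver and 10.1% in muscle had every heat array above every control. Of the 9 neuron markers, 7 in liver and 2 in muscle stayed under the highest trp control. SNAP25 (mean 208 after heat, 49.9 in controls) and STMN2 (134 and 29.8) were the other 2 in liver. Endothelial markers summed to 2064 to 2392 after heat, against 1777 to 2325 in controls, in brain, to 5696 to 7613, against 3415 to 4327, in liver, and to 4988 to 5483, against 4040 to 5709, in muscle. Erythroid markers summed to 5999 to 19944 after heat, against 13831 to 20438 in controls, in brain, to 16191 to 18533, against 14386 to 31046, in liver, and to 8250 to 15422, against 6781 to 17199, in muscle. Leukocyte markers summed to 6737 to 8597 after heat, against 7704 to 10423 in controls, in brain, to 23546 to 27809, against 22758 to 26779, in liver, and to 10813 to 12398, against 10620 to 15087, in muscle. Of the endothelial, erythroid and leukocyte sums, only the endothelial sum in liver had heat and control ranges that did not overlap. There 1 of the 6 endothelial markers was called higher, where 6.94% of all probe sets tested were called higher.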
